A study of Mus musculus with 10 samples.

Results

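Genes that mark astrocytes, oligodendrocytes and their progenitors were followed through 10 RNA-seq libraries of mouse meningioma-like tumors. The members were 33 genes named by symbol, and all 33 were found among the 16895 symbols in the files. They fell into 13 genes of mature astrocytes, 5 genes of radial glia, progenitors and brain proteoglycans, 7 genes of the oligodendrocyte lineage and 8 genes of myelin. Of these, 26 passed the filter on low values and were tested together with the other genes, 13707 in all. The remaining 7 (NTSR2, CLDN10, NKX2-2, GPR17, MOG, ERMN and OPALIN) are given by their values only.

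Astrocytes are the glial cells that take up glutamate and potassium from around synapses and wrap blood vessels with water channel-rich endfeet. Oligodendrocytes make the myelin of the brain and spinal cord, and they arise from precursors under the control of OLIG2, SOX10 and, at the step to myelination, MYRF. Meninges are mesenchymal and neural crest-derived and are not built from either cell type, but several glial genes are also used elsewhere. Among them are SOX10, S100B, MBP, MAG and CNP in the Schwann cells of peripheral nerves, and GLUL, SLC1A3 and SLC4A4 in many tissues.

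The tumors grew after DF1 cells, a chicken fibroblast line carrying an avian RCAS retrovirus, were placed in the subarachnoid space of mouse pups at postnatal day 0 to 3. Every host was null for Cdkn2a, a tumor suppressor, and expressed tv-a, the receptor that the virus needs, under the Nestin promoter, which is active in neural and other progenitors. The virus carried YAP1-MAML2-v2, a fusion of the Hippo pathway coactivator YAP1 with the Notch coactivator MAML2 (n = 7), or NLS-2SA-YAP1 (n = 3), the form of YAP1 that the series title calls constitutively active. Labels gave the source region as extra cranial for 6 tumors, NLS-2SA-YAP1 replicates 2 and 3 together with YAP1-MAML2-v2 replicates 1, 3, 4 and 5. Extra axial were 3 tumors, NLS-2SA-YAP1 replicate 1 together with YAP1-MAML2-v2 replicates 2 and 6, and intra ventricular was YAP1-MAML2-v2 replicate 7. The labels name DF1 as cell type although the material is ground tumor tissue, and no tumor-free tissue was analysed here. Because no label says that replicates are separate animals, p-values measure only the spread between these samples, which may be technical. The files of YAP1-MAML2-v2 replicates 6 and 7 share a number in their names, which no source used here explains.

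Values are given as CPM, the standard rescaling of each deposited value to its library's total, after TMM scaling. Library totals ran from 28001143 to 44544314, but these are not sequencing depth, because the deposited values are not plain read counts: genes at 1 outnumbered genes at 2 by a factor of 4.54 to 6.82 in each library. A value of 0 or 1 is therefore called "listed at 0 or 1" below and may not be a low reading. This touches 109 of the 330 values of the members. In ground tissue, fewer cells of a type and less RNA per cell cannot be told apart.

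The tumors differed in how many of the glial genes stood above a value of 0 or 1. Members listed at 0 or 1 numbered 4 of 33 in the intra ventricular library, 3 in NLS-2SA-YAP1 replicate 1, 2 in YAP1-MAML2-v2 replicate 3 and 7 in YAP1-MAML2-v2 replicate 1. In each of the other 6 libraries 14 to 18 members were so listed. These were 6.06% to 21.2% of the members in the first 4 libraries and 42.4% to 54.5% in the other 6. Over all genes in the files the shares were 15.3% to 18.9% and 18.3% to 22.2%, so the libraries differed there too, with overlapping ranges. Summed CPM gave another order, because GLUL and SLC4A4 make up most of it: the sum over all 33 members was 10028 in the intra ventricular library, 5219 in YAP1-MAML2-v2 replicate 4 and 1815 to 2854 in the other 8. The intra ventricular tumor had the highest levels of most astrocyte and progenitor genes. NLS-2SA-YAP1 replicate 1, an extra axial tumor, was highest for 4 of the 7 oligodendrocyte lineage genes. YAP1-MAML2-v2 replicates 1 and 3, labelled extra cranial, also held OLIG1, OLIG2 and the 5 progenitor genes above a value of 1.

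**Figure D1:**
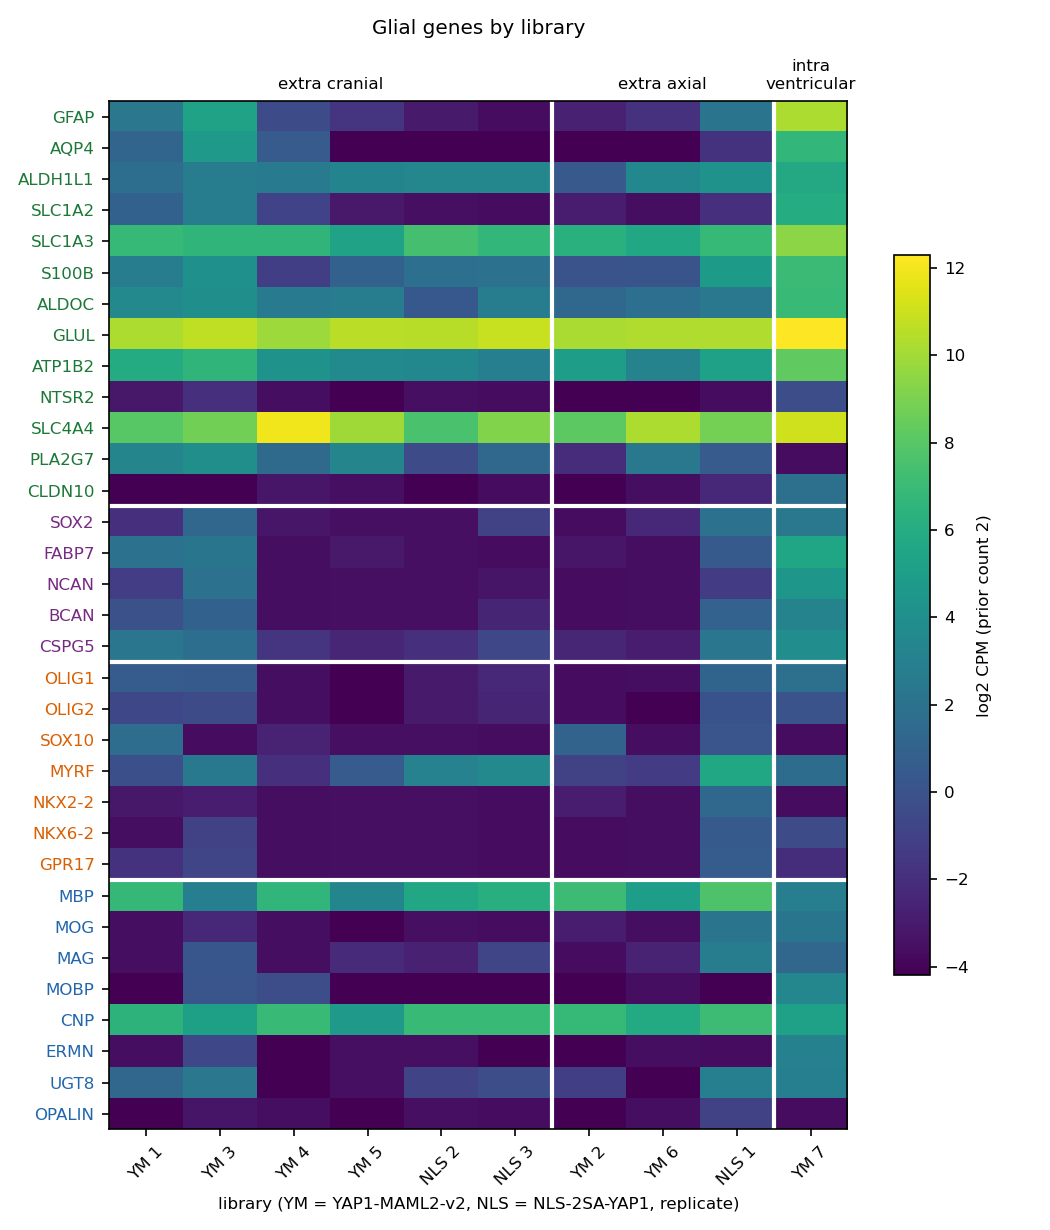
Heat map of the 33 glial genes (rows, grouped from top to bottom as mature astrocyte, progenitor and proteoglycan, oligodendrocyte lineage and myelin) in the 10 libraries (columns, by region), with color for log2 CPM at a prior count of 2. The intra ventricular column is bright in the top 2 blocks, the lineage block reaches its brightest cell at MYRF in NLS-2SA-YAP1 replicate 1, and most of the remaining columns are dark outside the broadly used genes GLUL, SLC1A3, SLC4A4, MBP and CNP.

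Among the 26 tested members, 18 (69.2%) were highest of the 10 libraries in the intra ventricular tumor, as were 19.9% of all genes tested. At least 4-fold above the median of the other 9 libraries stood 20 members (76.9%), beside 12.8% of all genes. MOBP, counted as highest and as 4-fold above, and NKX6-2, counted as 4-fold above only, passed the filter only through the intra ventricular library. Without that library 24 members and 13487 genes in all passed it. The median difference on the log2 CPM scale was 3.96 over the tested members and -0.04 over all genes tested. Because many of those medians rest on values of 0 or 1, the counts were repeated on genes with no such value in any library: 7 of 11 members were then highest in the intra ventricular tumor, beside 16.7% of all such genes, and 7 of 11 were at least 4-fold above, beside 6.94%. The 7 highest were mature astrocyte genes and the proteoglycan gene CSPG5. MYRF, MBP and CNP, the only oligodendrocyte genes among the 11, were neither highest there nor 4-fold above. The intra ventricular region has 1 library, so the differences have no replicate check and no test.

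By glial type, the intra ventricular library was highest for 9 of 11 tested mature astrocyte genes, all 5 progenitor and proteoglycan genes, 2 of 5 oligodendrocyte lineage genes and 2 of 5 myelin genes. The median log2 CPM difference from the other libraries was 4.08, 6.68, 3.06 and 3.76 in that order. The 6.68 is that of BCAN against a median listed at 1, so its size depends on the prior count. CSPG5, the only progenitor gene with no value of 0 or 1, had 5.55. Of the 2 myelin genes highest in the intra ventricular library, MOBP passed the filter only through that library. The other, UGT8, and OLIG2 of the lineage genes were not highest there under the other scalings. Against the 6 other YAP1-MAML2-v2 libraries alone, 20 of 26 members were highest and 20 were at least 4-fold above their median. Fewer libraries had to be exceeded here, and the share of all genes was not counted. These 2 counts therefore cannot be set against the shares given above.

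**Figure D2:**
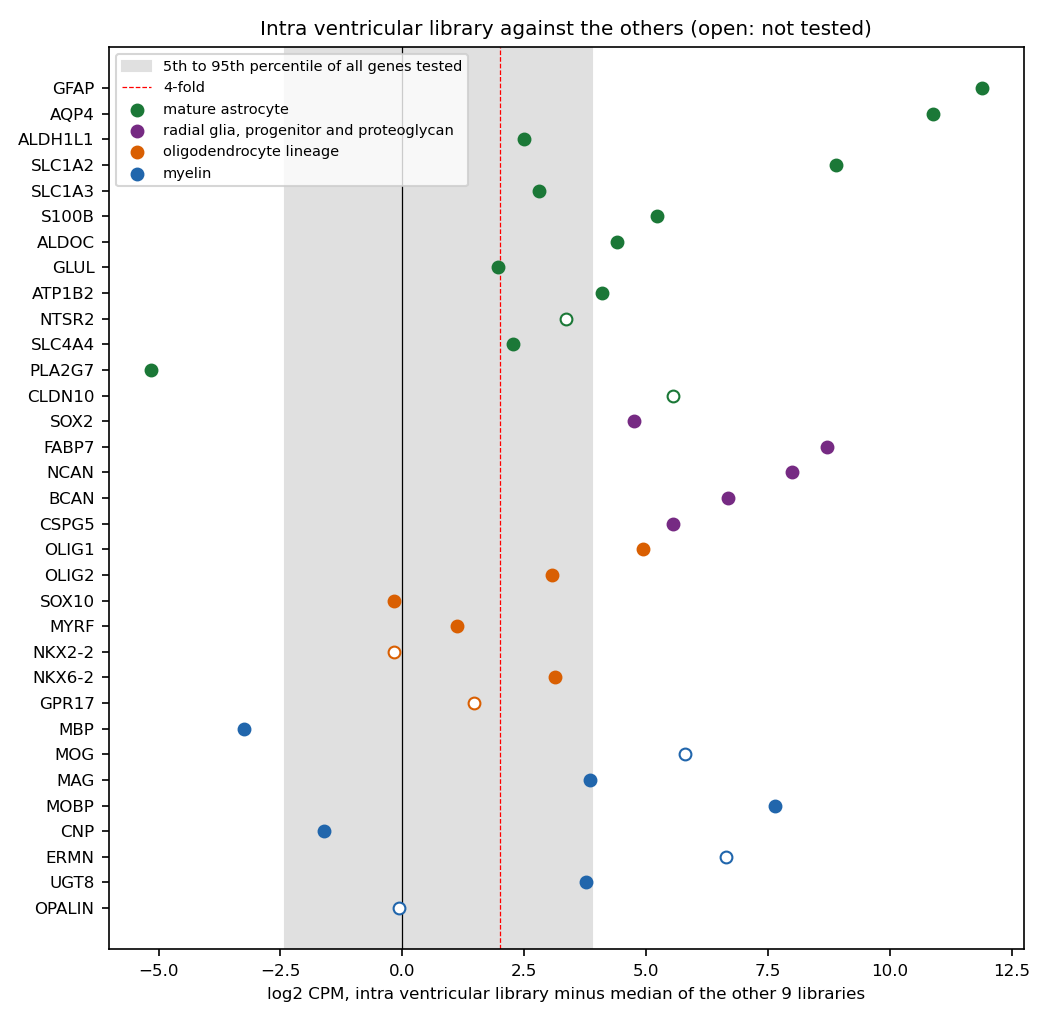
Difference in log2 CPM between the intra ventricular library and the median of the other 9 libraries (x axis) for each glial gene (y axis), with filled points for tested and open points for untested genes. The grey band runs from -2.41 to 3.89, the 5th to 95th percentile of all genes tested. GFAP and AQP4 lie farthest to the right at 11.88 and 10.88 (for AQP4 against a median listed at 0, so that its size depends on the prior count). PLA2G7 and MBP lie to the left of the band at -5.16 and -3.24. PLA2G7 is listed at 1 in the intra ventricular library, which may not be a low reading.

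The promoters of 4 members whose levels set the libraries apart are shown for orientation. GFAP, the astrocyte intermediate filament, and SLC1A2, the main glutamate transporter of astrocytes, stood highest in the intra ventricular tumor by a factor of 30.2 and 9.55 over the next library, whereas OLIG2, the basic helix-loop-helix factor of the oligodendrocyte lineage, and MOG, a surface protein of myelin, stood at nearly the same level there and in NLS-2SA-YAP1 replicate 1. Each window runs 5′ to 3′ on the gene's strand from 250 bases before to 50 bases after the start site (RefSeq, GRCm38.p6). Capitals mark matches on either strand to GGAATG (the core bound by TEAD factors, the DNA-binding partners of YAP1), ACAAAG or ACAAT (SOX factors) or TTGGCA (the core bound by NFI factors). Neither SOX motif contains the other.
GFAP, chr11:102897151-102897450, minus strand: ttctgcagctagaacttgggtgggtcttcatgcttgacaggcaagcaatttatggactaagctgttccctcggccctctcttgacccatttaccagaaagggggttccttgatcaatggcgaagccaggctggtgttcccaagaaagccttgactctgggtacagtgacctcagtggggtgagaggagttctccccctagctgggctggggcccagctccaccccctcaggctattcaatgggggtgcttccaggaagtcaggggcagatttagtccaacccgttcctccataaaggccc
SLC1A2, chr2:102706188-102706487, plus strand: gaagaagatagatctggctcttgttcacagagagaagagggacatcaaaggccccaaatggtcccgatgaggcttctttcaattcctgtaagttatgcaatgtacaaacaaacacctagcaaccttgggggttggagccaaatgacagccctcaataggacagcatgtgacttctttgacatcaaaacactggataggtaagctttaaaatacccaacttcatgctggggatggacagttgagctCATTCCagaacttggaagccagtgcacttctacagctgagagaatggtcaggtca
OLIG2, chr16:91225300-91225599, plus strand: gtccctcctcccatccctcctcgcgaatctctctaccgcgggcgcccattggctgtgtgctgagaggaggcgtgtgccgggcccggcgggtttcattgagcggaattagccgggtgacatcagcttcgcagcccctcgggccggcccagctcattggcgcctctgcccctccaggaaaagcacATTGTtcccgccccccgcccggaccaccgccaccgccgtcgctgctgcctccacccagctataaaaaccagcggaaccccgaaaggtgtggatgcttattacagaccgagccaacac
MOG, chr17:37023349-37023648, minus strand: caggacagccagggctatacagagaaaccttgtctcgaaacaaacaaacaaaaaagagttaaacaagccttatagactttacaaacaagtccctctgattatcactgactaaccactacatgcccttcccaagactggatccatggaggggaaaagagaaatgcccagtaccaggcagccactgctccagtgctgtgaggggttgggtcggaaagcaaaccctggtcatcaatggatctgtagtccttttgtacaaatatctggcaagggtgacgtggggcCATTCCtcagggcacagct

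The SLC1A2 and MOG windows each held 1 TEAD match, the OLIG2 window held 1 ACAAT match and the GFAP window held none of these letters. Windows were at hand for 25 of the 33 members (30 windows, some genes having several start sites). GGAATG was in 5 of the 30 windows (16.7%) and in 14.7% of all 32851 windows. ACAAAG was in 8 (26.7%) against 18.7%, ACAAT in 6 (20%) against 31.0% and TTGGCA in 4 (13.3%) against 14.1%. A match to such short letters is a description of the sequence and not a site of binding.

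GFAP, on chromosome 11 at 102887336 to 102900912 (mm10), was the member with the largest intra ventricular difference. It stood at 1204 CPM in the intra ventricular tumor. In the extra cranial tumors it was 4.97, 39.9, 0.681 and 0.264 CPM in YAP1-MAML2-v2 replicates 1, 3, 4 and 5, 0.0683 CPM in NLS-2SA-YAP1 replicate 2, and listed at 1 in replicate 3. The extra axial tumors had 0.105 and 0.225 CPM in YAP1-MAML2-v2 replicates 2 and 6 and 4.33 CPM in NLS-2SA-YAP1 replicate 1. The intra ventricular level was thus 30.2 times that of the next library, YAP1-MAML2-v2 replicate 3. Of the 13707 genes tested, 13695 had a smaller intra ventricular difference than GFAP.

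AQP4, the water channel of astrocyte endfeet, stood at 103 CPM in the intra ventricular tumor and at 25.6 CPM in YAP1-MAML2-v2 replicate 3. YAP1-MAML2-v2 replicates 1 and 4 had 2.26 and 1.39 CPM, NLS-2SA-YAP1 replicate 1 had 0.239 CPM, and the other 5 libraries were listed at 0. SLC1A2 ran in the same order at the top, with 63.1 CPM in the intra ventricular tumor, 6.61 CPM in YAP1-MAML2-v2 replicate 3 and 1.82 CPM in replicate 1. It was at most 0.482 CPM elsewhere, with 3 libraries listed at 1. AQP4 and SLC1A2 were therefore present in 3 tumors labelled extra cranial, YAP1-MAML2-v2 replicates 1, 3 and 4, at levels above those of every extra axial tumor.

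Of the mature astrocyte genes, 7 were above 0 or 1 in every library: the 6 given next and SLC4A4, in which the intra ventricular library was not the highest. SLC1A3, a glutamate transporter also present outside the brain, had 678 CPM in the intra ventricular tumor and 38.9 to 174 CPM in the other 9. GLUL, the glutamine synthetase that converts glutamate to glutamine, had 4999.7 CPM against 924 to 1941 CPM. ALDOC, the brain-type aldolase, had 121 CPM against 1.20 to 16.4 CPM, and ATP1B2, the glial sodium pump beta subunit, 313 CPM against 7.59 to 97.8 CPM. S100B, a calcium-binding protein of astrocytes and Schwann cells, had 130 CPM against 0.397 to 27.2 CPM, and ALDH1L1, a folate enzyme used as a pan-astrocyte marker, 53.7 CPM against 1.26 to 18.3 CPM. Unlike in SLC4A4, in none of these 6 genes did the intra ventricular library overlap the others, and the next-highest library was lower by a factor of 2.58 (GLUL) to 7.37 (ALDOC).

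The astrocyte genes were not high together without exception. SLC4A4, a sodium bicarbonate cotransporter, was highest in YAP1-MAML2-v2 replicate 4, an extra cranial tumor, at 3937 CPM, followed by the intra ventricular tumor at 2175 CPM and a range of 188 to 1207 CPM in the rest. PLA2G7, the secreted phospholipase that degrades platelet-activating factor, was listed at 1 in the intra ventricular tumor and stood at 0.183 to 15.7 CPM in the other 9. Its highest libraries were YAP1-MAML2-v2 replicates 3, 5 and 1. Among the untested members, NTSR2, the astrocyte neurotensin receptor, had 0.758 CPM and CLDN10, a tight junction claudin, 3.69 CPM in the intra ventricular tumor, and 7 libraries were listed at 0 or 1 for each.

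Divided by the annotated exon length, so that genes can be set against each other, GLUL had the highest level of the members in the intra ventricular tumor at 1505 CPM per kb. GFAP followed at 286, SLC4A4 at 201, S100B at 87.4 and SLC1A3 at 79.4 CPM per kb. The highest oligodendrocyte member on that scale was CNP at 10.2 CPM per kb, and MOG had 2.74 and MBP 0.864 CPM per kb. GFAP and 9 other astrocyte and progenitor genes thus stood above CNP, whereas SLC1A2 at 4.80 CPM per kb stood below it.

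The 5 progenitor and proteoglycan genes were all highest in the intra ventricular tumor. FABP7, the fatty acid-binding protein of radial glia, had 44.4 CPM in the intra ventricular tumor, 4.58 and 3.81 CPM in YAP1-MAML2-v2 replicates 3 and 1 and 1.34 CPM in NLS-2SA-YAP1 replicate 1. No other library exceeded 0.066 CPM. NCAN, the brain proteoglycan neurocan, had 22.6 CPM in the intra ventricular tumor, 4.05 CPM in YAP1-MAML2-v2 replicate 3, 0.387 CPM in replicate 1, 0.359 CPM in NLS-2SA-YAP1 replicate 1 and at most 0.0503 CPM in the other 6. BCAN, the related brevican, had 9.05 CPM, then 1.96 CPM in NLS-2SA-YAP1 replicate 1, 1.87 CPM in YAP1-MAML2-v2 replicate 3, 0.863 CPM in replicate 1 and at most 0.126 CPM in the rest. The same 4 libraries stood above the other 6 in each of these 3 genes and did not overlap with them.

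CSPG5, the proteoglycan neuroglycan C, had 14.5 CPM in the intra ventricular tumor, 4.79 and 3.29 CPM in YAP1-MAML2-v2 replicates 1 and 3, 4.74 CPM in NLS-2SA-YAP1 replicate 1 and 0.0843 to 0.578 CPM elsewhere. SOX2, the factor that keeps neural stem cells undifferentiated, had 5.21 CPM in the intra ventricular tumor and 3.76 CPM in NLS-2SA-YAP1 replicate 1, so the 2 libraries differed by a factor of 1.39. YAP1-MAML2-v2 replicate 3 had 2.28 CPM of SOX2, and the remaining 7 libraries at most 0.452 CPM, with YAP1-MAML2-v2 replicate 1 at 0.208 CPM.

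Outside the ventricle another library led the oligodendrocyte genes. Among the 9 tumors outside the ventricle, NLS-2SA-YAP1 replicate 1 was highest for 4 of 5 tested lineage genes and 4 of 5 tested myelin genes, and for 12 of all 26 tested members (46.2%), beside 16.6% of all genes tested. YAP1-MAML2-v2 replicate 3 was highest for 9 members (34.6%), beside 13.4% of all genes, and these included 6 of 11 mature astrocyte genes and none of the lineage genes.

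OLIG1, the partner of OLIG2, had 3.69 CPM in the intra ventricular tumor, 2.11 CPM in NLS-2SA-YAP1 replicate 1 and 1.49 and 1.37 CPM in YAP1-MAML2-v2 replicates 1 and 3. The other 6 libraries had at most 0.151 CPM. OLIG2 had 0.971, 0.910, 0.595 and 0.683 CPM in the same 4 libraries in that order and at most 0.126 CPM in the rest. Both OLIG genes lie on chromosome 16, OLIG2 at 91225457 to 91228677 and OLIG1 at 91269772 to 91271933 (mm10). The order of the intra ventricular tumor and NLS-2SA-YAP1 replicate 1 in OLIG2 turned when upper-quartile scaling or plain library totals were used, so these 2 levels are not ordered.

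NKX2-2, a homeodomain factor of oligodendrocyte precursors, had 2.44 CPM in NLS-2SA-YAP1 replicate 1 and no more than 0.0786 CPM in any further library, with 6 libraries listed at 1, the intra ventricular one included. NKX6-2, a homeodomain factor of maturing oligodendrocytes, had 1.32 CPM in NLS-2SA-YAP1 replicate 1, 0.687 CPM in the intra ventricular tumor and 0.456 CPM in YAP1-MAML2-v2 replicate 3, and was listed at 1 in the other 7. GPR17, a receptor that marks precursors committed to differentiate, had 1.44 CPM in NLS-2SA-YAP1 replicate 1, 0.531 and 0.238 CPM in YAP1-MAML2-v2 replicates 3 and 1, 0.189 CPM in the intra ventricular tumor and was listed at 1 in 6 libraries. The 3 genes shared NLS-2SA-YAP1 replicate 1 as their highest library.

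SOX10, which oligodendrocytes share with Schwann cells and melanocytes, did not follow the OLIG genes. It had 3.15 and 2.04 CPM in YAP1-MAML2-v2 replicates 1 and 2 and 1.05 CPM in NLS-2SA-YAP1 replicate 1. It had 0.113 CPM in YAP1-MAML2-v2 replicate 4 and was listed at 1 in 6 libraries, among them the intra ventricular tumor and YAP1-MAML2-v2 replicate 3, which both held OLIG1, OLIG2 and MAG.

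MYRF, the factor that switches on the myelin genes, had the smallest p of the members between constructs. In NLS-2SA-YAP1 replicates 1, 2 and 3 its level was 48.7, 8.78 and 11.9 CPM. YAP1-MAML2-v2 replicates 1 to 7 had 0.833, 0.446, 5.52, 0.199, 1.39, 0.337 and 3.08 CPM, so the 2 constructs did not overlap. NLS-2SA-YAP1 tumors had a mean of 23.1 ± 22.2 CPM (SD, n = 3) and YAP1-MAML2-v2 tumors 1.69 ± 1.96 CPM (SD, n = 7), a log2 fold change of 4.23 with an SE of 1.28 (edgeR adjusted p = 0.243). Without NLS-2SA-YAP1 replicate 1 it was 2.36 (edgeR adjusted p = 0.55). Over all alternatives that gave one, its adjusted p ran from 0.0506 with limma-voom and quality weights to 0.55, so MYRF did not pass the test.

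MBP and CNP, which are also active outside oligodendrocytes, were above 0 or 1 in all 10 tumors and among the lowest in the intra ventricular one. For MBP, myelin basic protein, NLS-2SA-YAP1 replicates 1 to 3 gave 209, 48.3 and 69.6 CPM. It had 109, 139, 7.57, 101, 10.4 and 33.1 CPM in YAP1-MAML2-v2 replicates 1 to 6 and 7.32 CPM, the lowest of the 10, in the intra ventricular tumor. For CNP, the cyclic nucleotide phosphodiesterase of myelin, NLS-2SA-YAP1 replicates 1 to 3 gave 137, 125 and 125 CPM and the 7 YAP1-MAML2-v2 tumors 24.997 to 123 CPM, with 37.3 CPM in the intra ventricular one. YAP1-MAML2-v2 replicate 3, the second tumor in GFAP and AQP4, was second from the bottom in MBP.

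The other myelin genes, of which MAG and possibly others are also used by Schwann cells, were each listed at 0 or 1 in some libraries. MOG had 4.66 CPM in the intra ventricular tumor and 4.36 CPM in NLS-2SA-YAP1 replicate 1, and at most 0.152 CPM in the other 8. MAG, an adhesion molecule of inner myelin, had 6.61 CPM in NLS-2SA-YAP1 replicate 1, 2.34 CPM in the intra ventricular tumor, 1.09 CPM in YAP1-MAML2-v2 replicate 3 and at most 0.553 CPM elsewhere. UGT8, the enzyme that makes the myelin lipid galactosylceramide, had 7.65 and 7.47 CPM in the intra ventricular tumor and NLS-2SA-YAP1 replicate 1, 4.99 and 2.35 CPM in YAP1-MAML2-v2 replicates 3 and 1 and at most 0.754 CPM in the rest. The order of the first 2 libraries in UGT8 also turned under the other scalings.

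The 2 libraries parted in 3 further myelin genes. MOBP, a small basic protein of compact myelin, had 10.8 CPM in the intra ventricular tumor, 1.04 and 0.766 CPM in YAP1-MAML2-v2 replicates 3 and 4, and was listed at 0 in all NLS-2SA-YAP1 tumors. ERMN, the cytoskeletal protein ermin, had 8.12 CPM in the intra ventricular tumor, 0.607 CPM in YAP1-MAML2-v2 replicate 3 and was listed at 0 or 1 in the other 8. OPALIN, an oligodendrocyte membrane protein, had 0.455 CPM in NLS-2SA-YAP1 replicate 1 and was listed at 0 or 1 in 8 libraries, the intra ventricular one included. A tumor with MOG and UGT8 could thus be listed at 0 for MOBP or at 1 for OPALIN.

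**Figure D3:**
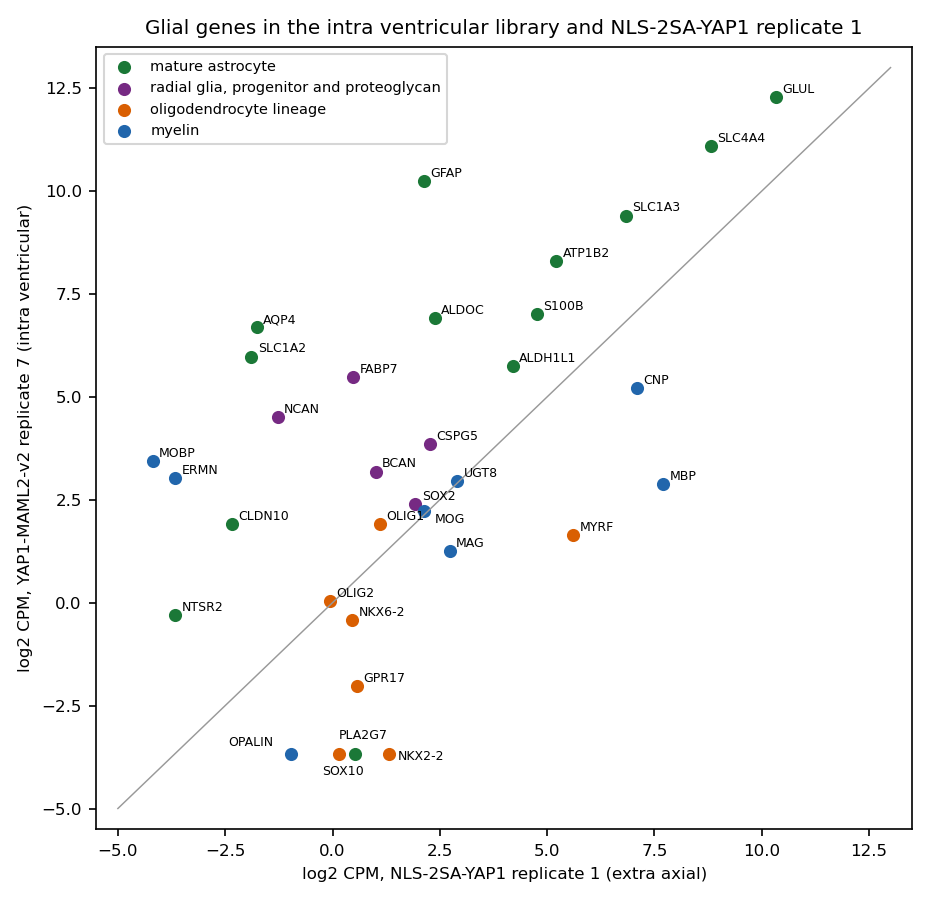
Log2 CPM (prior count 2) of the 33 glial genes in NLS-2SA-YAP1 replicate 1 (x axis) and in the intra ventricular library, YAP1-MAML2-v2 replicate 7 (y axis), with a line of equal level and colors for glial type. Astrocyte and progenitor genes lie above the line except PLA2G7, MOG, UGT8 and OLIG2 lie on it, and MBP, CNP, MYRF and NKX2-2 lie below it.

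Set side by side, GFAP was 278 times, AQP4 431 times and NCAN 63.0 times as high in the intra ventricular tumor as in NLS-2SA-YAP1 replicate 1. The ratio was 1.07 for both MOG and OLIG2 and 1.02 for UGT8. MYRF was 15.8 times and MBP 28.5 times as high in NLS-2SA-YAP1 replicate 1. Each of these compares 2 libraries that differ in construct and region, without replicates.

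A longer list of glial genes was read in the same way. Of 22 other astrocyte genes, 17 were tested, and 12 of these were highest in the intra ventricular tumor. CLU, the chaperone clusterin, had 22199 CPM there and 1154 to 8320 CPM elsewhere. GJA1, the gap junction protein connexin 43, was highest in NLS-2SA-YAP1 replicate 1 at 1174 CPM, above 910 CPM in the intra ventricular tumor. SPARCL1, a matricellular protein, was highest in YAP1-MAML2-v2 replicate 5 at 3082 CPM. Of 26 other oligodendrocyte and precursor genes, 25 were tested, 11 of them highest in the intra ventricular tumor and 8 in NLS-2SA-YAP1 replicate 1, beside 13.6% of all genes for that library. Their median log2 CPM was 3.17 in the intra ventricular tumor and 2.08 in NLS-2SA-YAP1 replicate 1, so that in this list the order of the 2 libraries was the reverse of that in the lineage members. ENPP6, a choline phosphodiesterase of new oligodendrocytes, had 2106 CPM in NLS-2SA-YAP1 replicate 1, 1574 CPM in YAP1-MAML2-v2 replicate 3, 469 CPM in the intra ventricular tumor and 64.4 to 379 CPM elsewhere. CLDN11, the claudin of myelin and of arachnoid barrier cells, had 1257, 763 and 638 CPM in these libraries in turn and 0 to 312 CPM elsewhere. BCAS1, a marker of early myelinating cells chosen here after its values were seen, had 37.5 CPM in NLS-2SA-YAP1 replicate 1 and at most 1.76 CPM in the others. ENPP6, CLDN11 and BCAS1 were thus all highest in NLS-2SA-YAP1 replicate 1. None of the 11 genes of this list that were highest in the intra ventricular tumor is given by value, so the named genes do not stand for the list.

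Most neuron and microglia markers were also highest in the intra ventricular library. Of 16 neuron genes, 14 were highest there, with SNAP25 at 39.8 CPM against at most 1.87 CPM and RBFOX3 at 12.3 CPM against at most 0.481 CPM, and none was listed at 0 or 1 there. The exceptions were MAP2 and TUBB3, and TUBB3 had 360 CPM there and 378 to 1066 CPM elsewhere. The summed level of all 16 was 827 CPM there and 402 to 1153 CPM elsewhere. All 8 microglia genes in the files were highest there, with P2RY12 at 163 CPM against at most 6.95 CPM, and their sum was 1798 CPM against 291 to 531 CPM. Of 7 tested ependyma and choroid plexus genes 2 (28.6%) were highest there, beside 19.9% of all genes. At least 4-fold above the median of the other libraries stood 4 of the 7 (57.1%), beside 12.8% of all genes. With the untested ones, 7 of 15 were highest there. Listed at 0 or 1 were 1 of the 15 there and 8 to 12 in each other library. Their median log2 CPM was 0.65 there and -4.19 to -3.49 elsewhere. The sum over all 15 was 246 CPM against 31.6 to 440 CPM. TTR, the choroid plexus transthyretin, had 0.5683 CPM there, and KCNJ13, the 1 gene listed at 0 or 1 there, was at 0. TTR and KCNJ13 lay below the list median there and do not stand for the list, whose other genes are not given by value. The part of these cells in the glial levels was not tested.

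Schwann cell genes showed another pattern. Of 14 genes 1, GAP43, which neurons also express, was highest in the intra ventricular tumor, and 5 were listed at 0 or 1 there. Their sum was 316 CPM there, of which GAP43 made 155 CPM and PMP22 107 CPM. It was 485 CPM in NLS-2SA-YAP1 replicate 1, 490 and 498 CPM in YAP1-MAML2-v2 replicates 1 and 2 and 173 to 599 CPM in the others. The median log2 CPM of this list was highest in YAP1-MAML2-v2 replicate 1 at 3.10, with 1.24 in replicate 2 and 1.06 in NLS-2SA-YAP1 replicate 1. Skeletal muscle genes summed to 4.38 CPM in NLS-2SA-YAP1 replicate 1, the lowest of the 10, and to 64.3 CPM in YAP1-MAML2-v2 replicate 3. Melanocyte genes, which could also carry SOX10, summed to 8.40 CPM in NLS-2SA-YAP1 replicate 1, to 15.2 and 5.95 CPM in YAP1-MAML2-v2 replicates 1 and 2 and to 7.14 to 27.0 CPM in the others. The part of Schwann cells and melanocytes in MBP, CNP, SOX10 and the other glial genes that they may share was not tested.

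**Figure D4:**
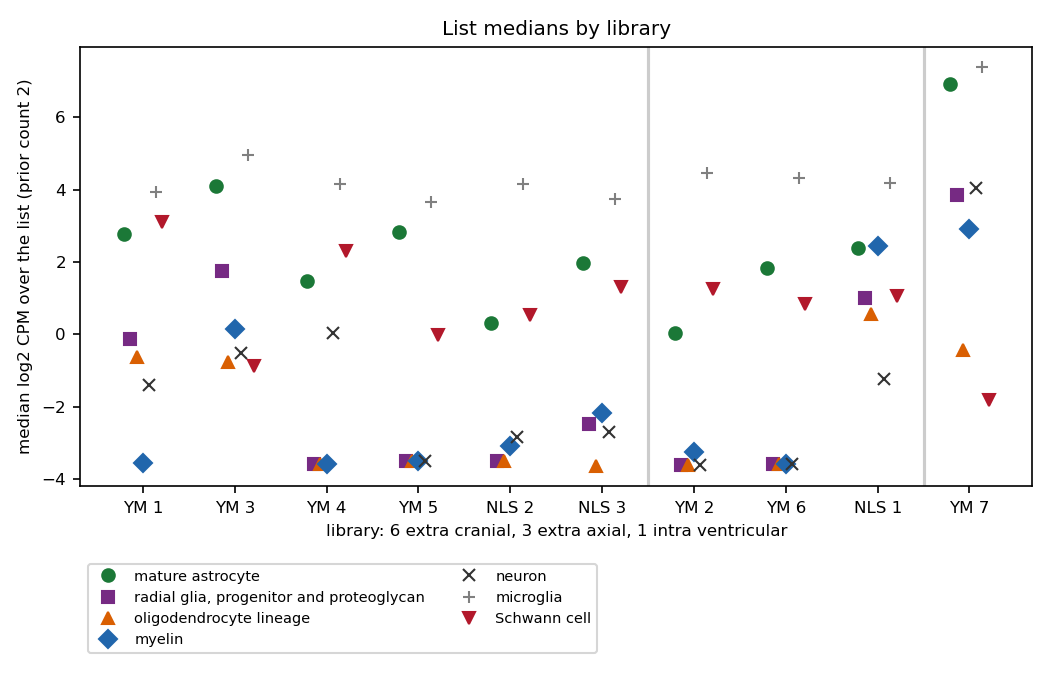
Median log2 CPM (prior count 2) of each gene list (y axis) in each library (x axis, by region), with 1 point per list and library. The astrocyte, progenitor, neuron and microglia points are highest in YAP1-MAML2-v2 replicate 7 at 6.92, 3.86, 4.05 and 7.396, the Schwann cell point is lowest there at -1.82, the oligodendrocyte lineage point is highest in NLS-2SA-YAP1 replicate 1 at 0.58, and the myelin point is highest in YAP1-MAML2-v2 replicate 7 at 2.91, with 2.44 in NLS-2SA-YAP1 replicate 1.

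Between constructs, edgeR called 0 of the 26 tested members in either direction, beside 0.0146% of all genes tested. At an unadjusted p under 0.05 stood 1 member, MYRF, and 13.1% of all genes. DESeq2 called 0 of the 18 members to which it gave an adjusted p, beside 5.01% of all genes. The fold change was positive (higher in NLS-2SA-YAP1 tumors) in 15 of 26 members, beside 48.4% of all genes, and negative in 11, with a median log2 fold change of 0.62 over the members and -0.03 over all genes. The constructs did not overlap in 2 members, MYRF and CNP (7.69%), close to the 6.73% of all genes, and in both the NLS-2SA-YAP1 tumors were higher, beside 3.71% of all genes. For CNP the NLS-2SA-YAP1 tumors averaged 129 ± 6.87 CPM (SD, n = 3) and the YAP1-MAML2-v2 tumors 68.7 ± 39.6 CPM (SD, n = 7), a log2 fold change of 0.81 (SE 0.48, edgeR adjusted p = 0.507).

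The next members by p were MOBP, SLC1A3 and PLA2G7. MOBP had an edgeR adjusted p of 0.397, and no fold is given for it because most of its values are 0 or 1. SLC1A3 had a log2 fold change of 0.75 (SE 0.37, edgeR adjusted p = 0.429), which turned to -0.32 when the region term was dropped. PLA2G7 had -2.03 (SE 1.13, edgeR adjusted p = 0.479), with 1.39, 0.683 and 2.39 CPM in NLS-2SA-YAP1 replicates 1 to 3 and up to 15.7 CPM in YAP1-MAML2-v2 tumors. By glial type, 4 of 11 mature astrocyte genes, 3 of 5 progenitor genes, 4 of 5 lineage genes and 4 of 5 myelin genes had a positive sign, and none passed.

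Between regions, edgeR called 0 of 26 members, beside 0% of all genes tested. At an unadjusted p under 0.05 stood 0 members and 3.01% of all genes, and DESeq2 called 0 of 18 members, beside 0.23%. The fold change was positive (higher in extra axial tumors) in 8 of 26 members, beside 49.4% of all genes, and negative in 18, with a median log2 fold change of -0.40 beside -0.01 over all genes, and 0 members separated the regions without overlap, beside 0.89%. The 4 members with the smallest p were MOBP, ALDOC, MBP and PLA2G7, each with an edgeR adjusted p of 1. ALDOC had 3.72 ± 1.35 CPM (SD, n = 3) in extra axial and 8.14 ± 5.31 CPM (SD, n = 6) in extra cranial tumors, a log2 fold change of -0.94 (SE 0.71). The mean of MBP was 127 ± 88.4 CPM (SD, n = 3) in extra axial and 57.7 ± 43.6 CPM (SD, n = 6) in extra cranial tumors, a log2 fold change of 1.04 (SE 0.86). Differences of this size were within the spread between tumors of a region.

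**Figure D5:**
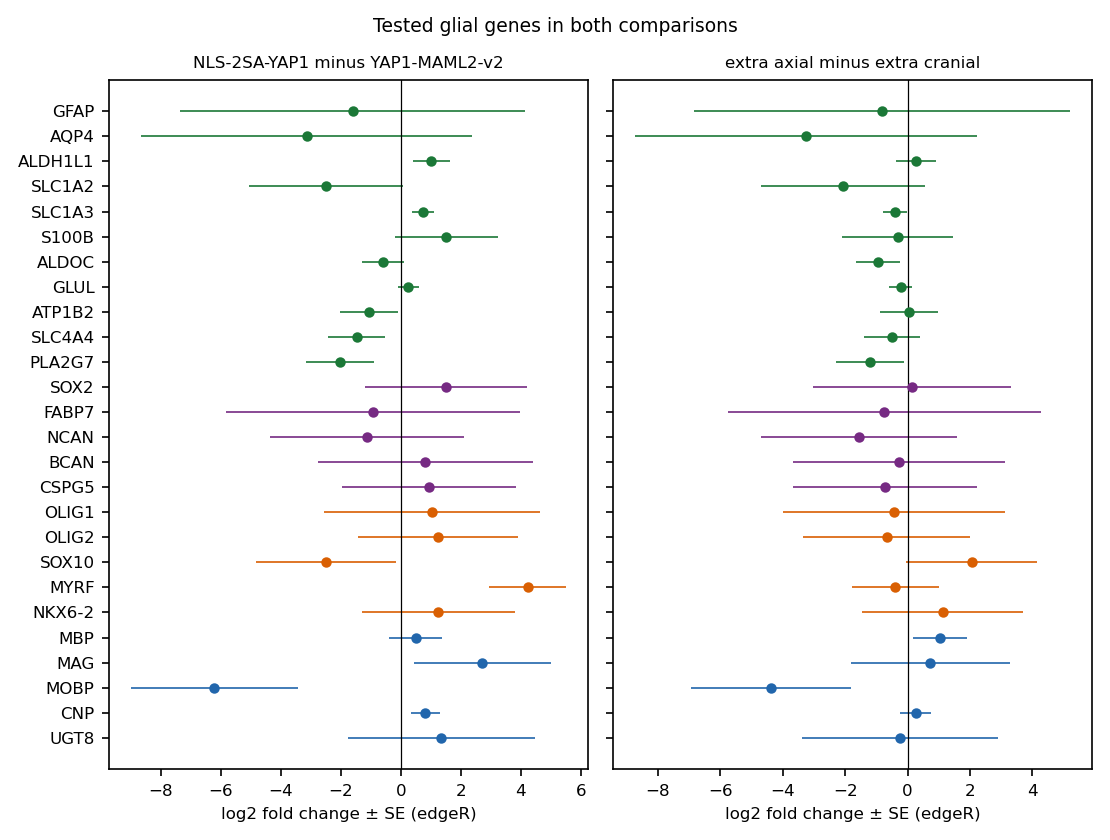
Log2 fold changes with standard errors (edgeR, all 10 libraries) of the 26 tested glial genes between constructs (left) and between regions (right). None passed an adjusted p of 0.05; the standard errors are widest for GFAP, AQP4 and FABP7, which vary between single tumors, and MYRF at 4.23 lies farthest to the right between constructs.

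The errors were wide for genes that varied strongly within groups. GFAP had a log2 fold change of -1.60 (SE 5.74) between constructs and AQP4 of -3.14 (SE 5.53). In a fit of the 9 tumors outside the ventricle with the product of construct and region, 0 of 24 members passed (smallest edgeR adjusted p = 0.658), beside 0.00741% of all genes. At an unadjusted p under 0.05 stood 10 of 24 (41.7%), beside 7.14% of all genes, by edgeR's test. Their smallest unadjusted p was that of GFAP, 0.00593, followed by FABP7 at 0.014. That term rests on NLS-2SA-YAP1 replicate 1 as the only extra axial library of its construct, so its construct and region cannot be told apart from that 1 tumor.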

How the data were processed

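RNA-seq values of 10 tumors were used. Per the labels, frozen tumors were ground and total RNA went into stranded mRNA libraries. HTSeq and mm10 are named in the submitters' processing notes. No source used here gives the aligner, annotation, strand setting, treatment of overlapping genes or later steps. The values the authors deposited are whole numbers under human-style symbols and were treated as estimated counts, because genes at 1 far outnumber genes at 2. A symbol match ignoring case to GENCODE M21 (mm10) covered 91.6% of them, and UGT8 was matched to Ugt8a. Raw counts had been assumed in the plan. The values needed no rounding, and limma-trend, which does not need raw counts, was an alternative.

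Genes were kept by filterByExpr at a minimum of 10, scaled by TMM and tested with edgeR's quasi-likelihood test (edgeR 4.0.16, limma 3.58.1, DESeq2 1.42.0, R 4.3.3), with construct and region as terms and Benjamini-Hochberg adjustment over all genes. A standard error is the log2 fold change divided by the square root of its F. Log2 CPM used a prior count of 2. No interval for counting error was computed, since depth is unknown. The steps were tested on simulated data. The members and lists were chosen with earlier results of these data known. Named are the members with the 4 smallest p per comparison and the 6 largest intra ventricular differences in full, the others by their values, and for other lists up to 4 genes each. Some genes of those lists are not reported here.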

Additional observations from a re-analysis of the deposited data

Results flagged for a closer look

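Dixon's test at the 95% level was applied to log2 CPM of the tested members in the YAP1-MAML2-v2 tumors and in the extra cranial tumors, 52 groups in all, and 4 values stood apart. Chance alone sets apart about 1 in 20 groups. SLC1A3 at 9.41 and GLUL at 12.29 in YAP1-MAML2-v2 replicate 7, the intra ventricular tumor, lay far above the other YAP1-MAML2-v2 tumors. SOX10 at 1.68 in YAP1-MAML2-v2 replicate 1 and NKX6-2 at -0.97 in YAP1-MAML2-v2 replicate 3 were also set apart among the extra cranial tumors. For NKX6-2 every other extra cranial tumor was listed at 1, and for SOX10 all but YAP1-MAML2-v2 replicate 4 were. With values tied in this way the 95% level does not apply, and no conclusion is drawn from these 2 genes.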

How the results depend on the processing

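No member passed between constructs or regions under any alternative run. DESeq2 gave no adjusted p to some members, MYRF and GFAP among them, so it did not assess these. The number of all genes called between constructs, 2 with edgeR, was 674 with DESeq2, 4 with limma-trend, 95 with limma-voom, 4 without the filter, 4 in extra cranial libraries and 36 with the replicate number as a block. Leaving out 1 library gave 0 to 2: 0 without YAP1-MAML2-v2 replicates 2, 4 or 6 or NLS-2SA-YAP1 replicates 2 or 3, and 1 without YAP1-MAML2-v2 replicates 3 or 5. Between regions 0 became 31 with DESeq2 and 0 to 1 without 1 library, the 1 being without YAP1-MAML2-v2 replicate 6 or NLS-2SA-YAP1 replicate 1. Whether the replicate numbers pair the samples stayed unsettled. Deviations of equal numbers correlated at 0.168, 0.337 and -0.0723, and those of unequal numbers at -0.1565 to 0.1257. Numbers 1 and 2 thus correlated best with their own number, whereas YAP1-MAML2-v2 replicate 3 correlated best with another number. The log2 fold change of SLC1A3 between constructs turned to -0.32 without the region term, and the cause was not tested.

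Members highest in the intra ventricular library numbered 18, with 17 to 21 when 1 other library was left out, and those at least 4-fold above the median 20, with 18 to 22. Upper-quartile scaling and plain totals each gave 16 highest, losing OLIG2 and UGT8, and the median difference of all genes was -0.04 with TMM and -0.11 with plain totals (log2). With no value of 0 or 1 in any library, a restriction chosen after seeing the data, 7 were highest and 7 at least 4-fold above, of the 11 members left. A prior count of 0.5 changed the differences that rest on a median of 0, MOBP from 7.64 to 9.63 and AQP4 from 10.88 to 12.88. Against YAP1-MAML2-v2 libraries alone AQP4 was 8.52.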
